A study of Mus musculus with 2 samples.

Results

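The genes described here are 49 members of the TGF-beta and BMP superfamily signalling pathways, a fixed list of ligands, latent binding proteins, receptors, SMADs, secreted antagonists and target genes, out of 43346 gene rows, of which 21474 were annotated as coding for protein. Members were found by gene identifier and symbol, without using their values, and all 49 had a row. Total RNA-seq was carried out on whole lung of B6NCrl mouse embryos of embryonic day 16.5, in 2 libraries that the labels number as biological replicates of a single group. Lungs of embryos of both sexes were pooled for a library, 41 embryos in replicate 2 and an unstated number in replicate 1, and both replicates carry the same donor label. Input was 10 ng of RNA longer than 200 nt with added spike-in RNAs, and the libraries held 38852470 and 27145411 expected counts, the estimated number of reads. No gene was altered and no treatment given, so the values below, as mean ± SD (n = 2), give each gene's level, its ratio to related genes and how far the pools differed, with no test.

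Ligands of this superfamily bring type I and type II serine/threonine kinase receptors together, and the type I receptor then phosphorylates receptor SMADs. SMAD2 and SMAD3 carry TGF-beta and activin signals and SMAD1, SMAD5 and SMAD9 carry BMP signals. Both sets enter the nucleus with SMAD4, where the Id genes are classical targets of the BMP branch. In the developing lung, BMP4 is made at the distal epithelial tips, and TGF-beta, held in the matrix as a latent complex with LTBP proteins, acts on branching, mesenchyme and septation.

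Levels are given in TPM, a unit that divides reads by transcript length and has the same total in each library, and a gene is called detected when each replicate has at least 1 TPM. Of the 49 members 44 were detected, beside 61.5% of all genes coding for protein and 34.2% of all gene rows. The 27 members at 10 TPM or more in both replicates come from 11 of the 12 roles, all but the inhibitory SMADs, and 5 members reached 100 TPM in both: Fstl1, Id2, Id3, Id1 and Tgfbi. The 5 members that were not detected were the ligand genes Bmp10 and Inhbb and the antagonist genes Nog, Grem1 and Fst. The median over the 49 members was 13.6 TPM in replicate 1 and 15.1 TPM in replicate 2 (14.4 ± 1.07), beside 4.87 ± 0.219 TPM over all genes coding for protein and 19.0 TPM over those of them that were detected. Together the members took 0.264% of the TPM of replicate 1 and 0.261% of that of replicate 2, and Fstl1, Id2 and Id3 made up 56.6% and 56.4% of this sum. In RNA from a whole organ, fewer cells of a type and less RNA per cell cannot be told apart.

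**Figure D1:**
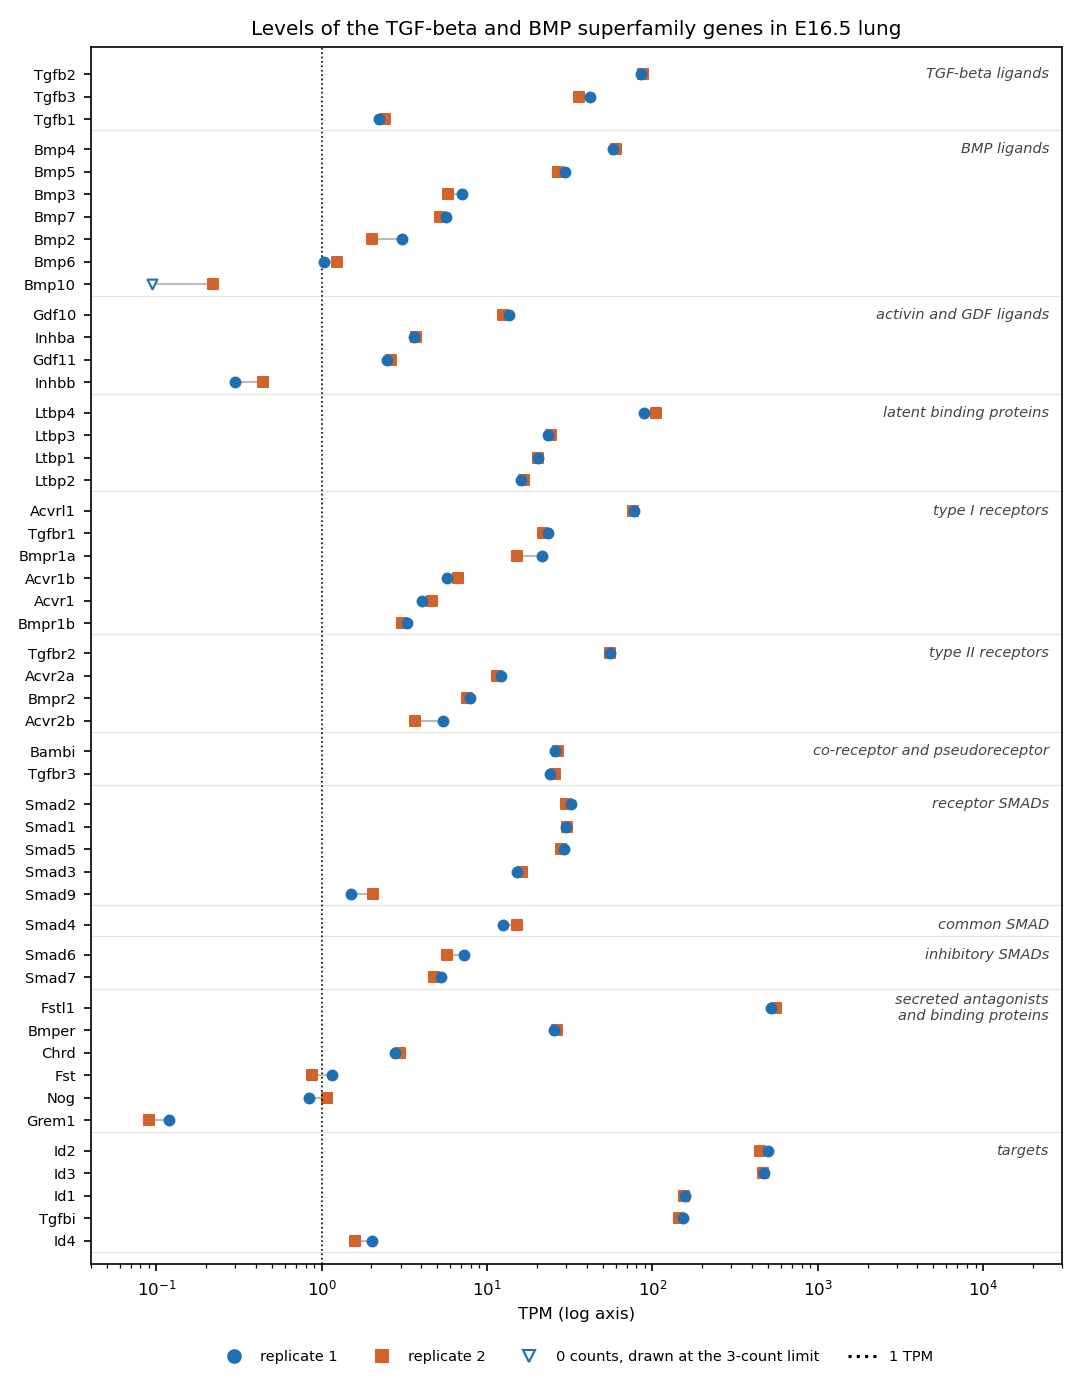
Level of each of the 49 members in TPM (log axis), grouped by role, with replicate 1 as circles and replicate 2 as squares. The triangle for Bmp10 stands at the limit that its 0 counts in replicate 1 allow, and the dotted line marks 1 TPM. Fstl1, Id2, Id3, Id1 and Tgfbi lie above 100 TPM in both replicates and 5 members fall below 1 TPM in at least 1 of them.

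The tissue label was checked against lists of marker genes. All 5 lung epithelial, 5 lung mesenchymal, 5 endothelial, 5 smooth muscle and 4 mesothelial markers were detected in both libraries, with the surfactant gene Sftpc highest at 12528 ± 2326 TPM. Markers of liver, skeletal muscle, thymus and cardiac muscle were present too and differed between the pools. The summed level of 5 liver markers was 49.6 and 417 TPM in replicates 1 and 2, that of 5 skeletal muscle markers 153 and 436 TPM, that of 4 thymus markers 9.63 and 25.9 TPM and that of 7 cardiac markers 1010 and 783 TPM. No marker of these 4 lists was at 0 in either library. Of the members, 45 had a mean of at least 1 TPM and could be set against this. Whether this RNA came from inside or outside the lung, and how far it entered the members' levels, was not tested.

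Among the TGF-beta ligands, Tgfb2 and Tgfb3 were high and Tgfb1 low. Tgfb1 (chr7:25687002-25705077, plus strand, build mm10), the isoform best known from immune regulation and fibrosis, was at 2.21 and 2.41 TPM in replicates 1 and 2, from 102 and 72 expected counts. Tgfb2 (chr1:186622792-186705989, minus strand) was at 85.5 and 88.1 TPM, and Tgfb3 (chr12:86056745-86079041, minus strand) at 42.2 and 36.1 TPM. The replicates of the 3 genes did not overlap: in both libraries Tgfb2 was highest and Tgfb1 lowest. On the log2 scale the ratio of Tgfb3 to Tgfb1 was 4.08 ± 0.25, and that of Tgfb2 to Tgfb3 was 1.15 ± 0.19.

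The margin of Tgfb2 over Tgfb3 came largely from short transcripts that do not code for protein. Its leading transcript, Tgfb2-205, is annotated as a retained intron of 898 nt and took 41.2 ± 3.23% of the gene's TPM, yet 11.8% and 14.5% of its expected counts. TPM divides by length, and expected counts do not. Summed over the coding transcripts alone, a comparison chosen after the data had been seen, Tgfb2 was at 42.9 and 39.0 TPM, still above Tgfb3 in each library, and its log2 ratio to Tgfb3 was 0.07 ± 0.06, which is within 2 SD of 0. Tgfb2 was above Tgfb1 by either choice, with a log2 ratio of 5.23 ± 0.06 for all transcripts and a smaller one of 4.55 ± 0.04 for coding ones.

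The coding transcripts of Tgfb2 come in a pair of forms that differ by 84 nt in the part encoding the propeptide side of the precursor, the latency-associated peptide. This stretch (chr1:186690721-186690804, minus strand, coding sequence of Tgfb2-206 in GENCODE M21, build GRCm38) is shown because it is what tells the coding parts of the forms apart:

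Tgfb2 alternative coding stretch: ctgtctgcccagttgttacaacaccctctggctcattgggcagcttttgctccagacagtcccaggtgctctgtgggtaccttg

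Its 84 nt are a whole number of codons, 28 in all. The form with the stretch was at 14.1 and 13.2 TPM and the form without it at 28.8 and 25.8 TPM. The form with it thus made up 32.8% and 33.8% of the TPM of the forms compared. Tgfb2-206, which holds the stretch, has 3485 nt in all, and Tgfb2-201, which lacks it, has 5116 nt. They thus differ outside the stretch too, and their split depends on the estimator. The shares in the 2 pools differed by less than 1 percentage point.

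BMP ligand genes covered a wide range, led by Bmp4. Bmp4 (chr14:46383520-46390669, minus strand), the ligand of the distal lung bud, was at 58.0 and 60.2 TPM, and Bmp5 (chr9:75775364-75900310, plus strand), a ligand known from lung and limb mesenchyme, at 29.7 and 27.0 TPM. Bmp3, which encodes an atypical member that can oppose BMP signalling, was at 7.09 and 5.77 TPM, and Bmp7 at 5.68 and 5.16 TPM. Bmp2, a close relative of Bmp4, had only 3.06 and 2.01 TPM. Bmp6 lay just above the detection limit at 1.04 and 1.24 TPM. In both libraries the order was Bmp4, Bmp5, Bmp3, Bmp7, Bmp2, Bmp6. Bmp4 was 19.0-fold above Bmp2 in replicate 1 and 30.0-fold in replicate 2, a log2 ratio of 4.58 ± 0.47.

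The small value of Bmp6 has a further limit. It rests on 63 and 53 expected counts, and its annotation overlaps that of Txndc5 on the opposite strand by 224 nt. Txndc5 was at 214 ± 1.10 TPM. The counted transcript Bmp6-201 has 2410 nt, beside 3593 nt in M21, so the overlap may lie outside the counted part. Whether the counting used strand is not given in the sources used here, and the part of such reads in the Bmp6 level was not tested. Of the 49 members, 14 overlap 17 genes on the other strand, 6 of which had a mean of at least 1 TPM. The longest such overlap, 5149 nt, was that of Tgfb3 with Ttll5 at 13.7 ± 1.29 TPM. It exceeds the 3384 nt of Tgfb3-201, the only Tgfb3 transcript counted. The overlap lengths are thus not those of counted exons, and the part in counted exons was not determined. Bmp10, a ligand of the embryonic heart, had 0 expected counts in replicate 1, which allows up to 0.0942 TPM, and 5 in replicate 2, or 0.220 TPM. Markers of cardiac muscle were present beside it in both libraries, and Myl7, a myosin light chain of atria, was the highest of them with 471 ± 133 TPM.

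Activin and GDF ligands were lower. Inhba, which encodes the beta A subunit of activins, was at 3.6 and 3.72 TPM. Inhbb, encoding the beta B subunit, was at 0.300 and 0.440 TPM, from 33 and 34 expected counts. The log2 ratio of Inhba to Inhbb was 3.33 ± 0.36. Gdf10, a BMP3-like ligand, led this group at 13.6 and 12.4 TPM, and Gdf11, a ligand of axial patterning, was at 2.47 and 2.63 TPM.

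All 4 latent binding proteins were expressed above 15 TPM in both pools. Ltbp4 (chr7:27305136-27337692, minus strand), whose product also serves elastic fibre assembly, was highest at 89.4 and 106 TPM. Ltbp3 was at 23.4 and 24.4 TPM, Ltbp1 (chr17:75005568-75392512, plus strand) at 20.4 and 20.5 TPM, and Ltbp2, which unlike the others does not bind latent TGF-beta, at 16.0 and 16.8 TPM. The log2 ratio of Ltbp4 to Ltbp3 was 2.02 ± 0.13, and 1.41 ± 0.03 over coding transcripts alone, where Ltbp4 was at 63.2 and 64.2 TPM. Its retained-intron transcript Ltbp4-208 of 550 nt took 23.5 and 36.5 TPM, so that the difference between the pools in the gene's TPM lay mostly in this short transcript and not in the coding ones.

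Ltbp1 and Ltbp4 are transcribed from separate starts that give long and short proteins, and the tables divide the TPM among them. Of the coding TPM of Ltbp1, the downstream start gave 74.0% and 74.9% in replicates 1 and 2, and the upstream start 26.0% and 25.1%. For Ltbp4 the downstream start took 95.6% and 96.4%. Both genes thus showed the short form ahead in both pools. The 4 windows before these starts are shown so that the starts can be compared, from the RefSeq promoter table on build GRCm38.p6. Each holds up to 250 bases before the RefSeq start and leaves out bases that lie in an annotated exon of the gene, and capitals mark 2 motifs searched on both strands. The first, GGCGCC, is a core of BMP response elements and reads the same on either strand. The second, CAGAC, is a SMAD binding sequence that is read as GTCTG from the other strand.

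Ltbp1 upstream start, chr17:75005279-75005528, plus strand: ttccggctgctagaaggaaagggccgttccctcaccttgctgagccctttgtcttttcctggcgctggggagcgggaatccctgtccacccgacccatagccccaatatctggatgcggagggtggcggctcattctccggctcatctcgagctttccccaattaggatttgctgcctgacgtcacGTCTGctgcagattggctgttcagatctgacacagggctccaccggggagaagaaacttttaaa
Ltbp1 downstream start, chr17:75178531-75178780, plus strand: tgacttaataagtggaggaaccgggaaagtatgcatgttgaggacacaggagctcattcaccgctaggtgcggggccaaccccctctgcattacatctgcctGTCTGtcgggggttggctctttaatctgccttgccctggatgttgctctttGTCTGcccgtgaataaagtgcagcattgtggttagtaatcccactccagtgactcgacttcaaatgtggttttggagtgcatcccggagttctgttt
Ltbp4 upstream start, chr7:27337693-27337862, minus strand: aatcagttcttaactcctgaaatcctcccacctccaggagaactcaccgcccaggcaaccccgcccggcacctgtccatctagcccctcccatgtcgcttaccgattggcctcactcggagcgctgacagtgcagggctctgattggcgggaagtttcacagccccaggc
Ltbp4 downstream start, chr7:27333664-27333913, minus strand: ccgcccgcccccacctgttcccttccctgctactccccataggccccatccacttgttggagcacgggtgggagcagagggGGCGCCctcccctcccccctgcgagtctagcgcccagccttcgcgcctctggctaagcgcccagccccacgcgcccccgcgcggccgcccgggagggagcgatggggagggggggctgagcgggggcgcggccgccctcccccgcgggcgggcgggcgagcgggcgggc

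The downstream Ltbp4 window was rich in G and C (79.2%), and the downstream Ltbp1 window, the more used of that gene, was not (50.8%). The upstream Ltbp1 window held GTCTG once and the downstream window held it at 2 places, 148 and 97 bases before the start. Neither Ltbp1 window held GGCGCC, which the downstream Ltbp4 window held once, 169 bases before the start. These are matches of letters and not measured binding.

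Inside Ltbp1, a coding stretch of 159 nt (chr17:75276396-75276554, plus strand, coding sequence of Ltbp1-203 in GENCODE M21) was present in 50.9% and 43.6% of the compared coding TPM. It is given because transcripts with and without it were about equally abundant:

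Ltbp1 alternative coding stretch: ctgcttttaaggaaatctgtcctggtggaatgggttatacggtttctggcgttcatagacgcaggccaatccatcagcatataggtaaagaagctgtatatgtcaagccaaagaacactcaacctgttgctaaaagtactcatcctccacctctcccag

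Of 30 members with more than 1 transcript in the tables, the same transcript led in both pools in 28, the exceptions being Ltbp2 and the receptor gene Acvr2b. The share over all genes with more than 1 transcript was not computed, so the count describes the members only. In Ltbp2 a coding stretch of 129 nt was in 41.9% and 61.9% of the compared TPM. The main forms with and without it, Ltbp2-201 and Ltbp2-202, have 6769 and 6602 nt and share most of their length, so their split depends on the estimator.

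**Figure D2:**
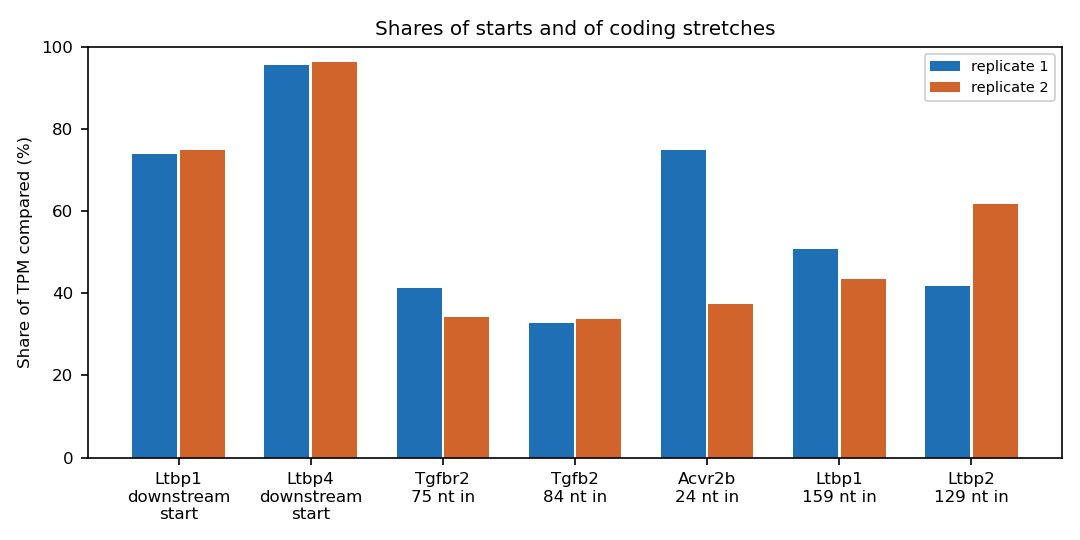
Share of the compared coding TPM (percent) from the downstream start of Ltbp1 and Ltbp4 and from transcripts that hold an alternative coding stretch, as 1 bar for each replicate. The bars of the starts and of Tgfb2 lie close together, and those of Acvr2b and Ltbp2 differ most.

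Type I receptor genes were led by Acvrl1 (chr15:101128522-101145336, plus strand), the ALK1 receptor of endothelium, at 77.7 and 75.9 TPM. Tgfbr1 (chr4:47353222-47414931, plus strand), the ALK5 receptor of TGF-beta, was at 23.2 and 21.7 TPM. The log2 ratio of Acvrl1 to Tgfbr1 was 1.78 ± 0.05. Bmpr1a (chr14:34410734-34503341, minus strand), the ALK3 receptor of BMPs, was at 21.6 and 15.1 TPM. Its close relative Bmpr1b was at 3.30 and 3.07 TPM. Bmpr1a was 6.54-fold and 4.93-fold above Bmpr1b in the 2 libraries. The activin receptor gene Acvr1b stood at 5.73 and 6.66 TPM and Acvr1, the ALK2 receptor, at 4.02 and 4.66 TPM. The log2 ratio of Acvr1 to Acvr1b, -0.51 ± 0.00, was almost the same in both pools. Acvr1b and Acvrl1 are neighbours 28.7 kb apart on chromosome 15, at mean levels of 6.20 and 76.8 TPM.

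Type II receptor genes were led by Tgfbr2 (chr9:116084293-116175360, minus strand), the ligand-binding receptor of TGF-beta, at 55.4 and 55.6 TPM. The activin receptor gene Acvr2a followed at 12.2 and 11.4 TPM, and the BMP receptor gene Bmpr2 was at 7.91 and 7.56 TPM. Acvr2b was lowest at 5.41 and 3.67 TPM. The log2 ratio of Tgfbr2 to Tgfbr1 was 1.31 ± 0.07 and that of Bmpr2 to Bmpr1a was -1.22 ± 0.32. Of these 2 pairs, the type II gene was thus the higher for Tgfbr2 and Tgfbr1 and the type I gene for Bmpr2 and Bmpr1a. Other type I genes stood elsewhere, with Acvrl1 above Tgfbr2, and Bmpr1b and Acvr1 below Bmpr2. The ratio of Bmpr2 to Bmpr1a depended on division by length, since with undivided expected counts it was -0.10 ± 0.33 and within 2 SD of 0.

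Tgfbr2 also has a pair of coding forms, which differ by a stretch of 75 nt in the extracellular part (chr9:116158271-116158345, minus strand, coding sequence of Tgfbr2-202 in GENCODE M21). It is shown because both forms were abundant:

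Tgfbr2 alternative coding stretch: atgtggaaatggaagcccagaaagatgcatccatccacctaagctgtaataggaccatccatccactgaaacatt

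The longer form was at 22.9 and 19.0 TPM and the shorter at 32.6 and 36.6 TPM, so the stretch was in 41.3% and 34.1% of the gene's TPM. Both transcripts have other lengths in M21 than in the deposited tables, where they differ by 75 nt, the length of the stretch. Of the 2 forms of Acvr2b, which differ by a coding stretch of 24 nt, that with the stretch had 74.9% and 37.3% of the TPM. With 227 and 110 expected counts for the whole gene and other lengths in M21, this split is uncertain.

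Tgfbr3, the co-receptor betaglycan that presents TGF-beta2, was at 23.9 and 25.9 TPM, a log2 ratio of -1.16 ± 0.08 to Tgfbr2. Bambi, a receptor-like protein without a kinase that blocks BMP and TGF-beta receptors and is itself a BMP target, was at 25.8 and 26.8 TPM. Its log2 ratio to Bmp4, -1.17 ± 0.00, hardly differed between the pools.

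Receptor SMAD genes of both branches were expressed, and Smad9 stood far below the rest. Smad2 was at 32.0 and 30.0 TPM and Smad3 at 15.1 and 16.3 TPM. Smad1 was at 29.9 and 30.5 TPM and Smad5 at 29.1 and 28.0 TPM. The log2 ratio of Smad1 to Smad5 was 0.08 ± 0.06 and could not be told from 0 by the rule used here, that both libraries share a sign and the mean exceeds 2 SD. Smad9, the remaining receptor SMAD of the BMP branch, was at 1.5 and 2.03 TPM, a log2 ratio of -4.11 ± 0.29 to Smad1. The common SMAD gene Smad4 was at 12.4 and 15.2 TPM, below Smad2 by 1.17 ± 0.27 on the log2 scale. Inhibitory SMAD genes were lower: Smad6, which acts mainly on BMP signals, was at 7.23 and 5.69 TPM and Smad7, which acts on both branches, at 5.28 and 4.79 TPM. The ratio of Smad6 to Smad7 held its sign at 0.35 ± 0.14 but was -0.15 ± 0.17, within 2 SD of 0, with expected counts not divided by length.

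Secreted antagonists spanned the widest range of the 12 roles. Fstl1 (chr16:37776873-37836514, plus strand), a follistatin-like glycoprotein of mesenchyme that binds BMP4 and is needed for lung development, was the highest member at 525 and 556 TPM. Over its coding transcript alone it stood at 399 and 410 TPM. Bmper, a BMP-binding protein of endothelium and distal lung, was at 25.5 and 26.4 TPM and Chrd, which encodes chordin, at 2.76 and 2.97 TPM. The other classical antagonist genes listed, Nog, Fst and Grem1, were near or below the detection limit. Nog, encoding noggin, was at 0.840 and 1.08 TPM from 35 and 32 expected counts. Fst, encoding the activin antagonist follistatin, was at 1.16 and 0.870 TPM, and Grem1, encoding gremlin, at 0.120 and 0.0900 TPM from 13 and 7 expected counts. The log2 ratio was -5.96 ± 0.22 for Nog to Bmp4 and -9.15 ± 0.33 for Grem1 to Bmp4. Fstl1 exceeded Fst by 9.07 ± 0.35.

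**Figure D3:**
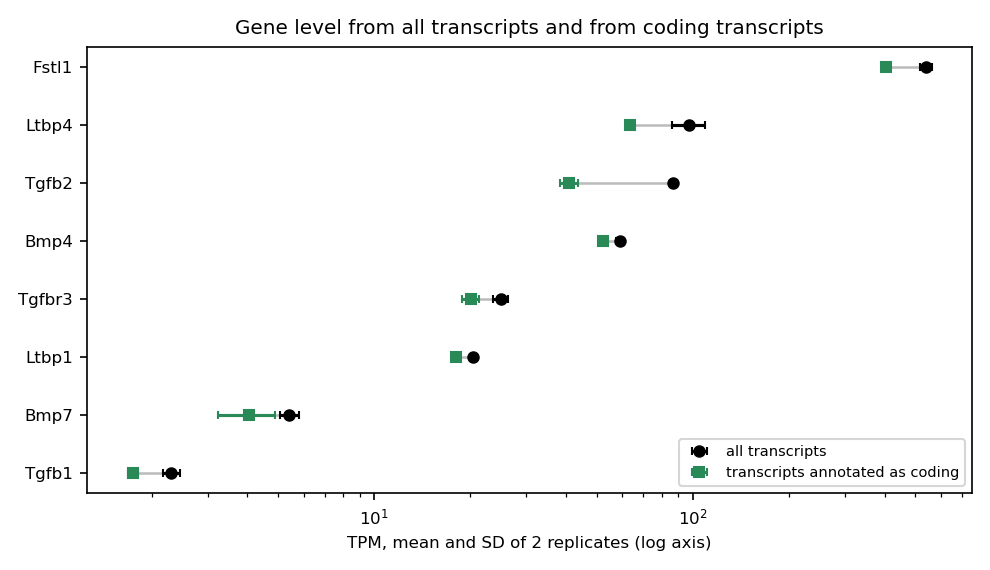
TPM of the 8 members in which noncoding transcripts took at least 10% of TPM, as mean and SD of 2 replicates on a log axis, over all transcripts (circles) and over transcripts annotated as coding (squares). Tgfb2 moves from 86.8 to 40.9 TPM and Ltbp4 from 97.5 to 63.7 TPM.

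Of the 5 target genes, 4 were among the highest members. Id2 (chr12:25093799-25097140, minus strand) was at 498 and 448 TPM and Id3 (chr4:136143497-136145755, plus strand) at 470 and 470 TPM. Id1 (chr2:152736251-152737410, plus strand) was at 158 and 155 TPM. These genes encode partners of bHLH factors that cannot bind DNA and so hold back differentiation. Id4 (chr13:48261228-48266026, plus strand) stood far below them at 2.01 and 1.59 TPM, a log2 ratio of -8.04 ± 0.24 to Id3. Id2 and Id3 changed order between the pools, with a log2 ratio of 0.01 ± 0.11. Tgfbi, a matrix protein gene named for its induction by TGF-beta, was at 154 and 146 TPM.

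The RefSeq promoter table held windows for 3 of the 4 Id genes, and the places of the searched letters in them are shown with 12 bases on each side because the levels of the genes differ so far:

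Id2, 231 bases before the start, chr12:25096306-25096335, minus strand: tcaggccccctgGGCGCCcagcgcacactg
Id4, 148 bases before the start, chr13:48260956-48260985, plus strand: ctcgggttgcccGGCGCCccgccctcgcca
Id3, 167 bases before the start, chr4:136143643-136143671, plus strand: tgtcctcggcgtCAGACcagcctaaggaa
Id3, 68 bases before the start, chr4:136143742-136143770, plus strand: ggacccttggcgGTCTGttttgaataagg

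Id2 and Id4 each held GGCGCC once, with a level of 473 ± 35.7 TPM in the first and 1.80 ± 0.297 TPM in the second. Id3 held no GGCGCC in these 250 bases, and its main GENCODE transcript starts 325 bases before the RefSeq start, so that the window lies inside it. Of 44 windows of 36 members, 12 (27.3%) held GGCGCC, beside 9.59% of all 32851 windows. Overlapping windows of a gene count a site again, as in a pair of Ltbp4 windows, and by gene it was 11 of 36 (30.6%), beside 10.8% of all 27025 genes with a window. Of the 44 windows 18 (40.9%) held CAGAC on either strand, beside 42.2%. The motifs do not overlap in their letters. Base composition differed as well, with a median G and C content of 66.6% in the members' windows and 52.4% in all, and its part in the share for GGCGCC was not tested.

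Ratios set the members against each other within a library, where scaling cancels. The 35 pairs were chosen, and the share of other gene pairs that meet the rule of 2 SD was not computed. By this rule the sign held in 33 of 35 pairs, and the exceptions were Smad1 to Smad5 and Id2 to Id3. Over coding transcripts alone it held in 32, with Tgfb2 to Tgfb3 as the added exception. With expected counts not divided by length the mean took the other sign in 5 pairs. In 2 of them it was then clear of 0 by the same rule, in Bambi to Bmp4 at 0.36 ± 0.02 and in Smad1 to Smad5 at -1.01 ± 0.06. In the other 3 it lay within 2 SD of 0. These were Smad6 to Smad7, Bmp4 to Bmp5 (1.06 ± 0.13 in TPM, -0.0394 ± 0.13 undivided) and Smad2 to Smad3 (0.98 ± 0.15 in TPM, -0.0296 ± 0.11 undivided). Counts not divided by length favour long transcripts and do not compare levels between genes.

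**Figure D4:**
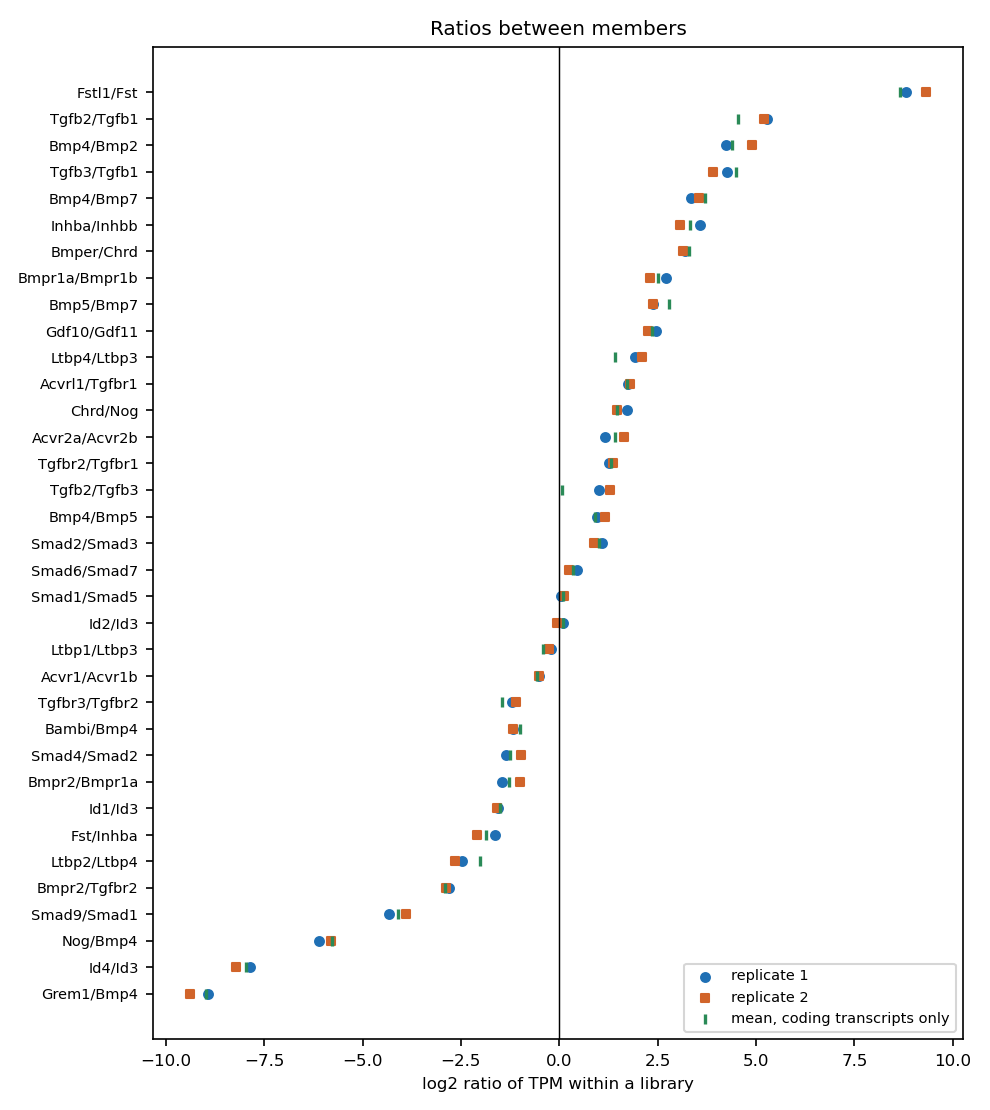
Log2 ratio of TPM within a library for the 35 pairs of members, in replicate 1 (circles) and replicate 2 (squares), with the mean over coding transcripts as a vertical mark. In Smad1/Smad5 and Id2/Id3 the ratio lies at 0.08 and 0.01, and for Tgfb2/Tgfb3 the mark lies at 0.07.

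The pools were then compared gene by gene. For each gene, log2(TPM + 1) of replicate 1 was subtracted from that of replicate 2, a scale on which low genes differ less than in TPM. Of 45 members with a mean of at least 1 TPM, 0 were 2-fold or more apart, beside 2.67% of the 15493 genes compared, and 23 were lower in replicate 2, beside 49.5% of those genes. These are single libraries, so the counts have no replicate check and no p. The median difference was -0.00 over the members and 0.00 over all genes. Across 19384 genes the libraries differed by more than counting error, with a chi-square of 10.7 per degree of freedom, so they are not 1 library deposited again. From 10 to 100 TPM the SD of the difference was 0.16 over 22 members and 0.24 over all genes in that range, and from 1 to 10 TPM it was 0.21 over 18 members and 0.53 over all. The median absolute difference, which a few far genes hardly move, was nearly the same for members and all genes, at 0.077 and 0.088 from 10 to 100 TPM and at 0.15 and 0.17 from 1 to 10 TPM. From 100 to 1000 TPM it was 0.074 over 5 members and 0.068 over all.

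Bmpr1a, Acvr2b and Bmp2 gave the largest differences. Bmpr1a was lower in replicate 2 by 0.49, and its 95% exact Poisson intervals, which cover counting error only, ran from 20.8 to 22.3 TPM and from 14.4 to 15.9 TPM. Acvr2b differed by -0.46, with intervals of 4.73 to 6.16 and 3.02 to 4.42 TPM. Bmp2 differed by -0.43, with intervals of 2.71 to 3.44 and 1.68 to 2.39 TPM. The intervals of these 3 genes did not overlap between the pools, which was not particular to them. Among other members without overlap were Fstl1 (520 to 530 and 550 to 562 TPM) and Id2 (490 to 506 and 439 to 457 TPM). The share over all genes was not computed. For Bmpr1a the counts were not whole, so some of its reads also matched other genes. On the other side, Smad9 was higher in replicate 2 by 0.28, Smad4 by 0.27 and Ltbp4 by 0.24. For Ltbp4 the coding transcripts, at 63.2 and 64.2 TPM, did not share that difference. Of the 5 targets, Id4 (-0.22), Id2 (-0.15), Tgfbi (-0.07) and Id1 (-0.03) were lower in replicate 2, as were 49.5% of all genes compared. The signs held in FPKM and under the other scalings run, which use the same libraries and are not separate evidence. The counting intervals of Id4 and Id1 overlapped between the pools, and those of Id2 and Tgfbi did not. From 100 to 1000 TPM the median absolute difference over all genes was 0.068, near that of Tgfbi and above that of Id1. Id3 differed by -0.00, and by 0.02 in FPKM. Cardiac markers were lower in replicate 2 in 5 of 7 genes, with a median of -0.36, and liver markers higher in 5 of 5, with a median of 2.95. The part of such tissue in the differences of Bmpr1a, Acvr2b and Bmp2 was not tested.

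**Figure D5:**
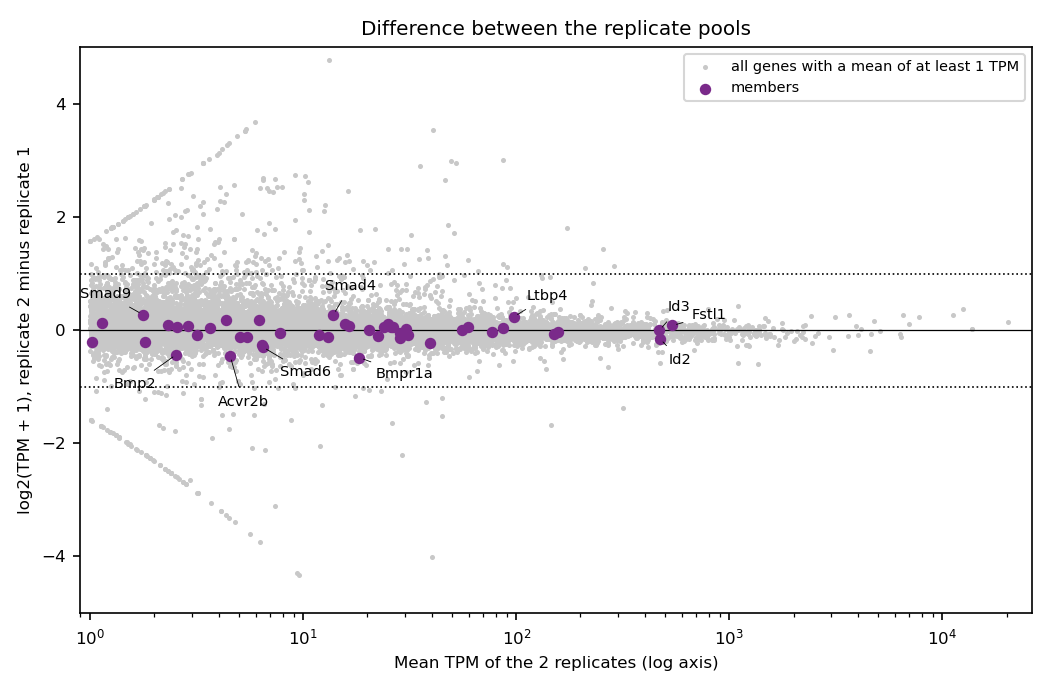
Difference in log2(TPM + 1), with replicate 1 taken from replicate 2, against mean TPM (log axis), for 15493 genes (grey) and 45 members (purple). Dotted lines mark 2-fold, and the members lie between -0.49 for Bmpr1a and 0.28 for Smad9.

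Of 70 other genes of the pathway on a separate list, 69 had a row and 44 (63.8%) were detected, a share near the 61.5% of all genes coding for protein. Of 44 compared genes 0 were 2-fold apart, beside the 2.67% over all genes, 25 were lower in replicate 2 and 19 higher. Eng, which encodes the endothelial co-receptor endoglin that works with ALK1, was at 96.0 ± 6.88 TPM beside Acvrl1 at 76.8 ± 1.29 TPM, followed by the BMP co-receptor genes Rgmb (10.9 ± 0.969 TPM) and Rgma (5.26 ± 1.13 TPM). Other ligands were low: 4 of 18 were detected, led by Inha at 3.31 ± 0.148, Bmp8b at 1.46 ± 0.290 and Gdf9 at 1.44 ± 0.396 TPM. Of 15 genes of ligand activation and processing 13 were detected. Thbs1, whose product can activate latent TGF-beta, was at 146 ± 17.95 TPM, the secreted protease gene Htra1 at 62.7 ± 2.46 TPM and the fibrillin gene Fbn2 at 62.0 ± 3.15 TPM.

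Other secreted binding proteins were high where the classical antagonists were not. The matrix proteoglycan genes Bgn and Dcn, whose products bind TGF-beta, were at 182 ± 11.99 and 143 ± 6.28 TPM. Twsg1, a partner of chordin, was at 105 ± 1.38 TPM, beside Chrd itself at 2.87 ± 0.148 TPM. Of 11 SMAD partners and regulators 10 were detected, led by the repressor genes Tgif1 (55.5 ± 3.62 TPM), Tgif2 (38.4 ± 2.35 TPM) and Skil (17.9 ± 1.02 TPM). Among 6 other targets, Hey1 was at 26.1 ± 0.962 TPM, Atoh8 at 25.5 ± 0.198 TPM and Ctgf at 11.7 ± 1.36 TPM, all below Id1, Id2 and Id3.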

How the data were processed

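RNA-seq tables of genes and transcripts from 2 libraries of embryonic lung were used. Per the notes deposited with the files, they were quantified on mm10 with GENCODE M4. The aligner, quantifier and strand setting are not given in the sources used here. The expected counts the authors deposited are estimated reads per feature, with shared reads divided. TPM, per the file headers, is divided by effective length and scaled to a fixed total, spike-ins included, and the FPKM values the authors deposited are scaled to each library's reads. Credibility bounds of TPM, the score columns the authors deposited, were used only for checks. The percent values deposited with transcripts are shares of a gene's TPM.

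Symbols, transcript classes and coordinates came from GENCODE M21, the same build, matched by identifier without version (42462 of 43346 gene rows). Lengths behind the counts differ from M21 for several members. Smad2-205 has 2857 nt in the counted model and 8089 nt in M21, Inhba-201 1957 and 6390, Gdf10-201 2507 and 5210, and Id4-201 1660 and 3849. Tgfbr2-201 is the longer in the counted model (4710 and 3476 nt). The part of this in the levels and ratios was not tested. Counts were whole numbers within 0.005 in 42 members and not in 7 (Tgfb3, Bmp5, Ltbp2, Ltbp3, Bmpr1a, Acvr2a and Id4), where reads were shared with other genes. Promoter windows came from RefSeq (GRCm38.p6), which held 36 of the 49 members on the chromosomes searched. Sequences on chromosome 18 were not used here.

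Detection was called at 1 TPM in both replicates. Differences used a pseudocount of 1 TPM and genes whose mean reached 1 TPM. With a single group there was no comparison between groups, and no p-value was computed. Ratios were read by a rule of 2 SD, which is not a test. Named were all members, the 3 highest other pathway genes of each role and the highest marker of a list where one was given, and beyond that rule Txndc5 and Ttll5 were named after their values were seen. The members and all lists, pairs and settings were chosen with earlier results of these data known. A count of 0 allows up to 3 counts, and intervals cover counting error only. Expected counts were rounded for edgeR 4.0.16 and DESeq2 1.42.0 (R 4.3.3), used for scaling alternatives only. Python 3.11.15, NumPy 2.4.6, pandas 2.3.3, SciPy 1.17.1 and matplotlib 3.10.9 were used, and the count at 2-fold was checked on simulated data. The simulation had counting error only, left out genes of low level and used changes larger than 2-fold. It therefore does not cover the wider spread between these libraries.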

Additional observations from a re-analysis of the deposited data

How the results depend on the processing

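The median of the levels of the 49 members was 14.4 TPM and moved to 9.735 in FPKM and 9.96 with length-divided counts scaled by TMM, which are other scales. It was 15.1 without replicate 1 and 13.6 without replicate 2. The number of members detected ran from 32 at 5 TPM to 46 at 0.5 TPM, and was 45 without either replicate. The number 2-fold apart was 0 under each of the 9 alternatives run, of which FPKM and coding transcripts alone were added after seeing the data. The ratio pairs clear of 0 with the sign found in TPM numbered 28 to 33, and 30 of 35 pairs kept the sign of their mean over both libraries in every scale run. With expected counts not divided by length, a setting that keeps gene length, the log2 ratio was clear of 0 with the other sign for Bambi to Bmp4 (0.36 ± 0.02) and Smad1 to Smad5 (-1.01 ± 0.06). It was within 2 SD of 0 for Bmp4 to Bmp5 (-0.0394 ± 0.13), Smad2 to Smad3 (-0.0296 ± 0.11) and Smad6 to Smad7 (-0.15 ± 0.17). For Id2 to Id3 the log2 ratio was -0.07 without replicate 1 and 0.08 without replicate 2. With the posterior mean TPM, Smad6 to Smad7 fell within 2 SD of 0. The same transcript led in both replicates in 28 of 30 genes, a count with no share over all genes beside it. The leading transcript took a mean of at least 50% in 27. Without a replicate the latter number was 27 to 28. No paired analysis was possible because there is a single group of 2 libraries. The depth of replicate 2, 27145411 expected counts, limits members such as Bmp10, Grem1, Nog and Inhbb, which rest on 5 to 34 counts there.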

Other observations

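Among the members, 4 pairs lie within 500 kb of each other, chosen by position alone. Acvr1b and Acvrl1 are 28.7 kb apart on chromosome 15, with means of 6.20 and 76.8 TPM. Smad5 and Tgfbi are 63.4 kb apart on chromosome 13, with means of 28.6 and 150 TPM. The gap was 195 kb for Smad3 and Smad6 on chromosome 9, at 15.7 and 6.46 TPM. It was 473 kb for Gdf10 and Bmpr1a on chromosome 14, at 13.0 and 18.4 TPM.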
